A study of Oryza sativa and Arabidopsis thaliana with 28 samples.

Results

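Ribosome-bound mRNA of rice osnat10 mutant seedlings was compared with that of wild type seedlings, gene by gene. The deposited rice table lists 3695 genes, and its title describes them as genes carrying ac4C. The comparison covers 3635 of these 3695 genes, those with a mean of at least 1 RPKM, a read count scaled by gene length and library size, over the 4 ribosome-bound libraries. The genes nearest to that limit had means of 0.932, 0.934 and 0.967 RPKM below it and of 1.02, 1.03 and 1.04 RPKM above it.

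Of 28 samples from Arabidopsis and rice in the series, 8 rice RNC-seq libraries and 2 rice ac4C-seq libraries enter here. The ac4C-seq libraries are a library treated with sodium cyanoborohydride and a control library, both from 15-day-old seedlings. A treatment time of 20 minutes is given for both. Wild type (WT) has the genotype Kitaake, a japonica rice cultivar, and the mutant has the genotype osnat10-1, called osnat10 here. Each genotype has 2 libraries of total mRNA and 2 of RNC mRNA, which is held by ribosomes together with their nascent chains, all from seedlings. The labels give neither the age of these seedlings, nor the cultivar that carries osnat10-1, nor the type of the mutation, and no other allele is analysed here. The growth protocol names the cultivar Nipponbare, and the text on RNC preparation names Arabidopsis. The seedling label was not checked against leaf and root marker genes, because the table gives locus IDs without descriptions and 0 of its IDs matched the reference name table. The targeted gene could not be checked in each library for the same reason. Genes other than the pair named in each direction are therefore given by their position in the table, whose rice build is IRGSP-1.0 per the submitters' processing notes.

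NAT10-type proteins are RNA cytidine acetyltransferases, which use acetyl-CoA and ATP to place N4-acetylcytidine (ac4C) on RNA. Their long-known substrates are the small-subunit ribosomal RNA and certain transfer RNAs, and ac4C in mRNA has been linked to RNA stability and translation in human cells. In RNC-seq, lysate is spun through a sucrose cushion in the presence of cycloheximide, an inhibitor of translation elongation, so that mRNA engaged with ribosomes is collected in the pellet and sequenced. The RNC level of a gene therefore depends both on how much of its mRNA there is and on how much of that mRNA is bound by ribosomes. In bulk RNA of seedlings, fewer cells of a type and less RNA per cell cannot be told apart.

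The libraries were of similar estimated depth but not equally alike. In each library, a step was searched for that best fits the 250 lowest values of genes with a single listed transcript. Of these RNC values, 26.4% to 41.2% were whole multiples of the best step, within 0.03 reads. Random values would give 6% for a step fixed in advance, and the level after such a search was not determined. In the first osnat10 library the next best step was 2.00 times as large. The best step corresponds to about 37500000 and 37300000 reads in the WT RNC libraries. In the osnat10 RNC libraries it corresponds to about 34700000 and 33900000 reads. The WT columns share a single header, so these libraries are called the first and the later listed. The median absolute difference in log2(RPKM + 1) across genes was 0.27 between the WT RNC libraries and 0.35 between the osnat10 RNC libraries. It was 0.33 and 0.38 between the second osnat10 library and each WT library, and 0.45 and 0.46 between the first osnat10 library and each WT library. Thus the first osnat10 library stood apart, and the second was about as far from WT as from its own partner. The first osnat10 library lists 55 genes at 0, the second 5, and the WT libraries 0 and 23. By the estimate from the best step, 1 read over 1 kb would equal 0.0288 RPKM in the first osnat10 library. The 55 genes that this library lists at 0 had a median of 3.77 RPKM in WT and 3.02 RPKM in the second osnat10 library. Whether these 0s are failed estimates was not tested.

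**Figure D1:**
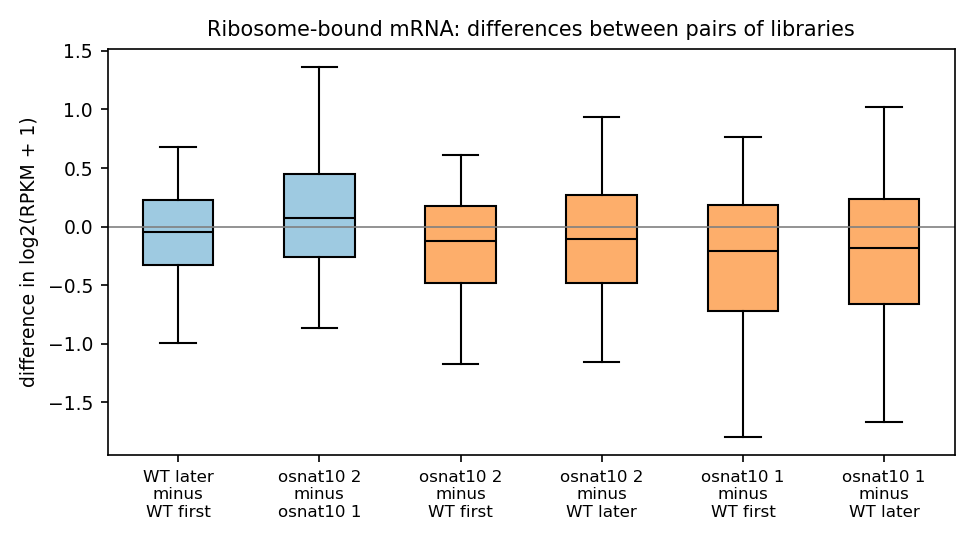
Difference in ribosome-bound log2(RPKM + 1) between each pair of RNC libraries over 3635 genes (y axis), with pairs within a genotype in blue and pairs across genotypes in orange; the line in each box is the median, the box spans the quartiles and the whiskers reach the 5th and 95th percentiles. The boxes that set the first osnat10 library against WT are the widest.

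Ribosome-bound mRNA was lower in osnat10 for more genes than it was higher. The test was limma on log2(RPKM + 1) with the Benjamini-Hochberg adjustment over all 3635 genes, and a gene was called at an adjusted p under 0.05. By this rule 150 genes (4.13%) were lower and 21 genes (0.578%) were higher in osnat10, and 841 genes had an unadjusted p under 0.05. Over all genes the median log2 change was -0.17, the middle 50% of genes lay between -0.53 and 0.15, and 64.2% of genes lay below 0. The distribution was longer on the lower side, with the 5th percentile at -1.22 and the 95th at 0.64. The library medians were 25.2 RPKM in both WT RNC libraries, and 21.8 and 23.6 RPKM in the osnat10 RNC libraries. With each library centred on its median, 77 genes (2.12%) were lower and 30 genes (0.825%) were higher, and the median change was -0.03. All 77 were among the 150, and all 21 higher genes were called after centring too. With quantile normalization 88 genes were lower and 45 higher, and the median change was 0.04. Counting only whether the groups overlap, both osnat10 values lay below both WT values in 1255 genes (34.5%) and above both in 504 genes (13.9%).

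Single libraries decided how many genes were called. Without the first listed WT library 40 genes were lower and 27 higher, and without the later listed one 43 were lower and 4 higher. Without the first osnat10 library 119 were lower and 14 higher, and without the second 541 were lower and 69 higher. Of the 150 lower genes, 27 were called with each of the 4 libraries left out in turn, as were 3 of the 21 higher genes, and all 150 and all 21 kept their sign. A p-value here sets the change against the spread within the 4 groups of 2 libraries, total mRNA included. That spread is drawn toward a trend over all genes. The labels do not say that the libraries of a group came from separate cultures.

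**Figure D2:**
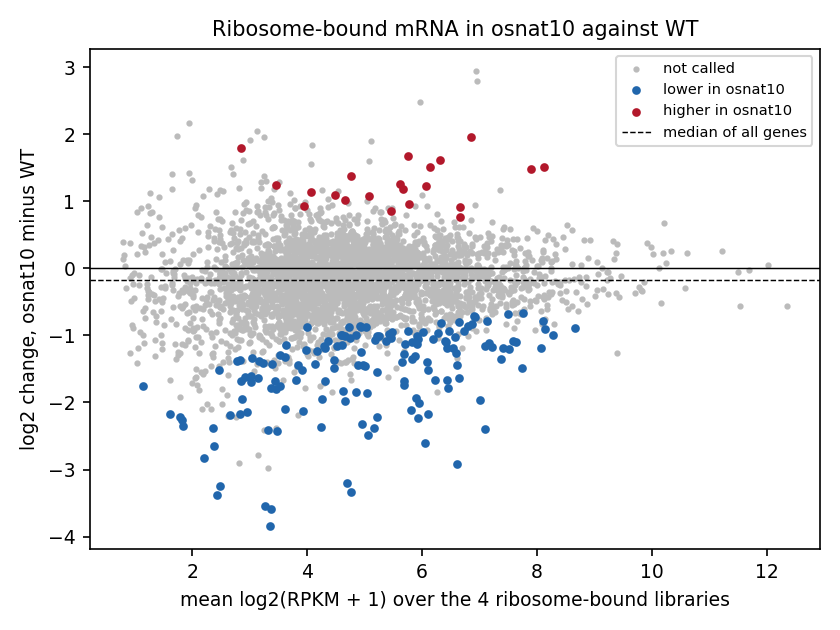
Log2 change in ribosome-bound mRNA, osnat10 minus WT (y axis), against the mean log2(RPKM + 1) over the 4 RNC libraries (x axis), with 1 point per gene. The 150 genes called lower (blue) extend to -3.84, the 21 called higher (red) to 1.97, and the dashed line at -0.17 is the median of all 3635 genes.

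The 150 lower genes had a median of 53.6 RPKM on WT ribosomes and 19.5 RPKM on osnat10 ribosomes. Their log2 changes ranged from -3.84 to -0.67 with a median of -1.39, and 122 of them were past -1 and 33 past -2. Both osnat10 values lay below both WT values in all 150, against 34.5% of all genes, but the 150 were called from these same values. They lay on all 12 nuclear chromosomes, where the share of genes called lower ran from 3.04% on chromosome 3 to 6.25% on chromosome 10. On the plus strand 4.17% of genes were lower and on the minus strand 4.08%.

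Os03g0807700 (chromosome 3, 33765712 to 33767700, plus strand) gave 36.3 and 33.5 RPKM on WT ribosomes and 2.11 and 1.84 RPKM on osnat10 ribosomes. The groups did not overlap and the libraries within each were close. Its log2 change was -3.59 (SE 0.28, limma adjusted p = 0.00129), or -3.45 after centring, and it was called in each of the 13 other fits. Its total mRNA went from 19.7 and 14.3 RPKM to 2.71 and 3.37 RPKM, a log2 change of -2.14 (limma adjusted p = 0.00511). Os02g0308400 (chromosome 2, 12113907 to 12114966, minus strand) showed the largest called decrease among genes with a mean of at least 5 RPKM. It gave 43.5 and 33.0 RPKM on WT ribosomes, was listed at 0 in the first osnat10 library and gave 6.34 RPKM in the second. The osnat10 libraries were low but far apart from each other. The log2 change was -3.84 (SE 0.72, limma adjusted p = 0.0230), and it ran from -5.28 to -2.41 with each RNC library left out in turn. The call was lost with a pseudocount of 0.1 and with only the 4 RNC libraries (limma adjusted p = 0.0802 and 0.0588). It was also lost without either WT library.

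A gene on chromosome 2 (24372806 to 24374439) was abundant on WT ribosomes, at 310 and 233 RPKM, and gave 27.8 and 42.7 RPKM in osnat10. Its log2 change was -2.92 on ribosomes. Its total mRNA was 624 and 280 RPKM in WT and 38.6 and 42.5 RPKM in osnat10, a log2 change of -3.33 (limma adjusted p = 0.00224). A gene on chromosome 8 (22558107 to 22559044) gave 368 and 267 RPKM in WT and 55.5 and 62.9 RPKM in osnat10, a log2 change of -2.39 (limma adjusted p = 0.00200). Its total mRNA was 676 and 437 RPKM in WT and 58.7 and 65.9 RPKM in osnat10, a log2 change of -3.11. In both genes the osnat10 values lay far below the WT values. A gene on chromosome 5 (23178205 to 23178921) gave 12.4 and 21.5 RPKM on WT ribosomes, was listed at 0 in the first osnat10 library and gave 1.81 RPKM in the second. Its total mRNA was 12.6 and 11.5 RPKM in WT and 10.8 and 12.1 RPKM in osnat10, so these groups overlapped. Its ribosome-bound call was lost without the later listed WT library (limma adjusted p = 0.0537).

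Among the 15 largest decreases, the log2 changes ran from -3.84 to -2.39. Of the 15, 5 were listed at 0 in the first osnat10 library, as were 55 of all 3635 genes. In total mRNA 7 were also called lower, against 1.21% of all genes. After centring 14 were called, as were 77 of all 150 lower genes. The gene spans, from first to last base on the genome, ran from 717 to 4199 bases.

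**Figure D3:**
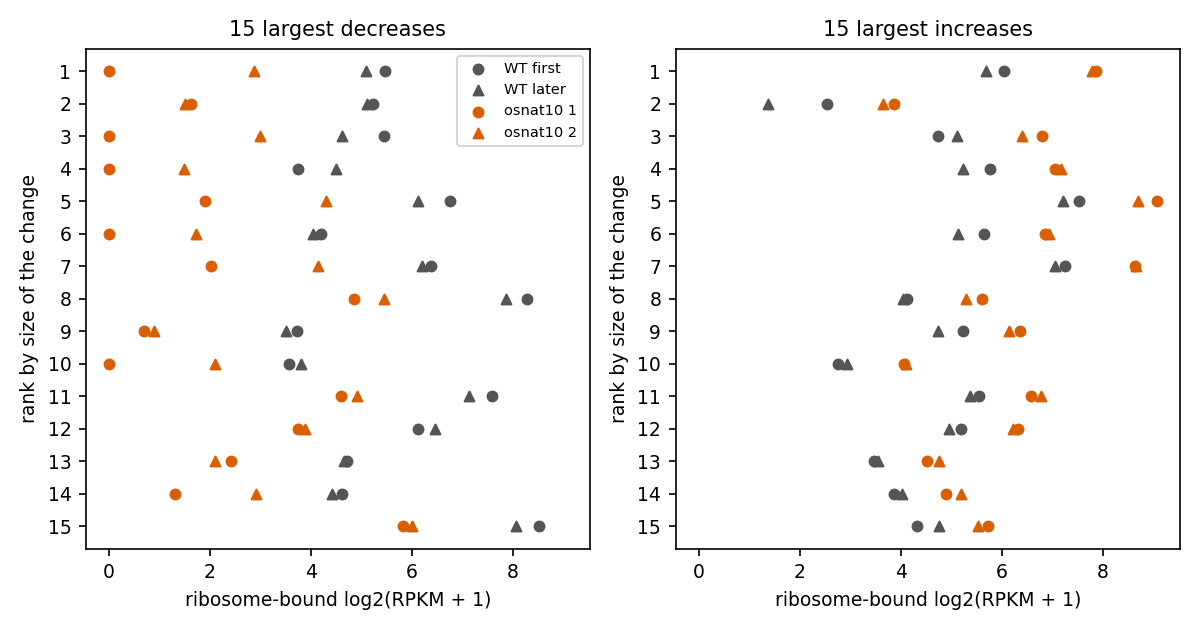
Ribosome-bound log2(RPKM + 1) in each RNC library (x axis) for the 15 largest decreases (left) and the 15 largest increases (right), ranked by size of the change (y axis). The osnat10 symbols (orange) lie on one side of the WT symbols (grey) in every row, as the choice of these genes requires, and 5 genes on the left sit at 0 in the first osnat10 library.

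Several of the lower genes lie side by side on chromosome 10. Within 2897688 to 3032661 the table lists 5 genes, and all 5 were called lower in both ribosome-bound and total mRNA. This stretch was picked after the values were seen. The gene at 3012860 to 3013949 gave 191 and 140 RPKM on WT ribosomes and 23.2 and 29.1 RPKM on osnat10 ribosomes, a log2 change of -2.60 (SE 0.27, limma adjusted p = 0.00200). The genes at 3016889, 3020705 and 3031619 were at 118 to 148 RPKM in WT and 23.4 to 38.7 RPKM in osnat10, with log2 changes of -2.23, -2.01 and -2.16. The gene at 2897688 gave 43.3 and 41.1 RPKM in WT and 12.5 and 4.14 RPKM in osnat10, a log2 change of -2.37 (limma adjusted p = 0.0250). In none of the 5 did the genotypes overlap. Their total mRNA changes, at -3.07 to -2.34, were of like size. The call of the gene at 3020705 was lost without the later listed WT library (limma adjusted p = 0.0504). The call of the gene at 2897688 was lost without the first and without the later listed WT library (limma adjusted p = 0.111 and 0.121), and the other 3 kept theirs without each library in turn. Whether these neighbours are near-identical copies that share reads was not tested. Across the table, 1004 pairs of neighbouring genes lay under 20 kb apart, 75 of these pairs held at least 1 lower gene, and both genes were lower in 5 pairs.

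The 21 higher genes had a median of 31.9 RPKM on WT ribosomes and 75.4 RPKM on osnat10 ribosomes. Their log2 changes ran from 0.77 to 1.97 with a median of 1.23, and 16 were past 1. None was listed at 0 in any RNC library. Os03g0592500 (chromosome 3, 22000043 to 22001240, plus strand) gave 65.1 and 50.3 RPKM on WT ribosomes and 233 and 220 RPKM on osnat10 ribosomes. The osnat10 values were close to each other and well above both WT values. Its log2 change was 1.97 (SE 0.25, limma adjusted p = 0.00512), or 2.11 after centring, and it was called in each of the 13 other fits. Its total mRNA went from 66.4 and 115 RPKM to 250 and 282 RPKM, a log2 change of 1.59 (limma adjusted p = 0.0161).

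Os10g0181600 (chromosome 10, 5592943 to 5595558, plus strand) was scarce, at 4.84 and 1.58 RPKM on WT ribosomes and 13.6 and 11.6 RPKM on osnat10 ribosomes. The groups did not overlap, but the WT libraries differed between themselves. The log2 change was 1.80 (SE 0.42, limma adjusted p = 0.0440), and 5 of the 13 other fits did not call it. Its total mRNA change was 0.97 (limma adjusted p = 0.478). A gene on chromosome 6 (9091026 to 9096474) gave 16.4 and 15.5 RPKM in WT and 48.1 and 38.5 RPKM in osnat10. Its log2 change was 1.38 on ribosomes, beside 2.22 in total mRNA, and 4 of the 13 other fits did not call it, among them those without the first WT, the later WT or the first osnat10 library (limma adjusted p = 0.0722, 0.102 and 0.0514).

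None of the 5 most abundant ribosome-bound transcripts was called in the fit of all 8 libraries. The gene at 26460057 on chromosome 3 had the highest level and gave 6597 and 6038 RPKM in WT and 4241 and 4355 RPKM in osnat10, with no overlap between the groups and a log2 change of -0.55 (limma adjusted p = 0.0681). The gene at 27060232 on chromosome 12 gave 3902 and 3313 RPKM in WT and 2274 and 2630 RPKM in osnat10, a log2 change of -0.56 (limma adjusted p = 0.0703). In a fit of only the 4 RNC libraries both were called lower (limma adjusted p = 0.00869 and 0.0418). The other 3 of the 5 highest genes had changes between -0.05 and 0.06.

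Of the organelle genes with a symbol in the table, 4 were tested and none was called in the fit of all 8 libraries. The mitochondrial atp1, which encodes the alpha subunit of ATP synthase, gave 3.76 and 3.03 RPKM in WT, was listed at 0 in the first osnat10 library and gave 5.05 RPKM in the second. The osnat10 values lay on both sides of WT, and atp1 was called lower without the second osnat10 library (limma adjusted p = 0.0323). The mitochondrial atp6, for a membrane subunit of the same enzyme, gave 1.59 and 1.81 RPKM in WT and 1.38 and 0.762 RPKM in osnat10, a log2 change of -0.40 (limma adjusted p = 0.660). The plastid atpA, for the alpha subunit of chloroplast ATP synthase, gave 4.13 and 0.528 RPKM in WT and 2.80 and 1.04 RPKM in osnat10, so the groups overlapped. The plastid atpH, for the membrane rotor subunit, gave 1.84 RPKM in the first WT library, was listed at 0 in the later one and gave 7.27 and 4.31 RPKM in osnat10 (limma adjusted p = 0.0688). It was called higher with quantile normalization, with a pseudocount of 5, without the first listed WT library and without the second osnat10 library (limma adjusted p = 0.0309, 0.0406, 0.0413 and 0.0291). The mitochondrial cox1 and cox3, which encode cytochrome c oxidase subunits, had means of 0.697 and 0.934 RPKM and were not tested.

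Total mRNA of the same genes and genotypes was measured beside the ribosome-bound mRNA. It was called lower in 44 genes (1.21%) and higher in 4 genes (0.11%), with a median log2 change of -0.07 over all genes. The first listed WT mRNA library differed from the later one by a median of 0.27 in log2(RPKM + 1), more than the 0.16 between the osnat10 mRNA libraries. Among the 150 genes lower on ribosomes, the median change in total mRNA was -0.59 with quartiles of -1.34 and -0.26. The change in total mRNA lay below 0 in 145 of the 150, against 57.5% of all genes. Total mRNA was called lower in 33 and higher in 0. The 33 genes are 22% of those lower on ribosomes and 75% of those lower in total mRNA. Both osnat10 mRNA values lay below both WT mRNA values in 126 of the 150, against 35.4% of all genes. In 39 of the 150 the mRNA change was under 0.3 in size, and the share of all genes under that size was not counted.

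Among the 21 higher genes, the median change in total mRNA was 0.50. It lay above 0 in 18, while 57.5% of all genes lay below 0. It was called higher in 3, against 0.11% of all genes. It was under 0.3 in size in 9, again without a count over all genes. Across all 3635 genes the ribosome-bound and mRNA changes had a Spearman rho of 0.39, and genes are not independent replicates. The difference between both changes, an interaction term that stands for a change in ribosome binding per mRNA, was called by limma in 0 genes. Its smallest adjusted p was 0.714, and 219 genes had an unadjusted p under 0.05.

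**Figure D4:**
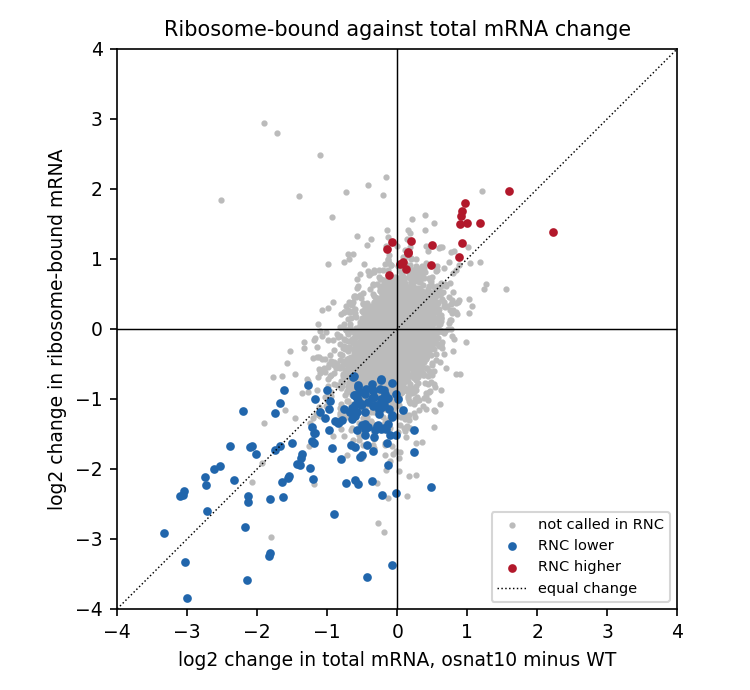
Log2 change in ribosome-bound mRNA (y axis) against log2 change in total mRNA (x axis), osnat10 minus WT, with 1 point per gene and a dotted line of equal change. Of the 150 genes lower on ribosomes (blue) 145 lie left of 0 on the mRNA axis, and of the 21 higher (red) 18 lie right of it. Of all genes, 57.5% lie left of 0 on that axis.

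Genes with a short span held most of the lower calls. Genes were ordered by span and divided into 5 groups of 727. In the shortest group, with a median span of 1114 bases, 86 genes (11.8%) were lower, which is 57.3% of all 150. In the following groups 27 (3.71%), 21 (2.89%), 11 (1.51%) and 5 (0.688%) were lower. After centring the counts were 55, 10, 6, 4 and 2. The shortest and the longest group held 28 and 2 lower genes without the first listed WT library, and 32 and 1 without the later listed one. They held 73 and 3 without the first osnat10 library, and 187 and 54 without the second. The higher calls numbered 10, 3, 2, 2 and 4. The median log2 change on ribosomes went from -0.28 in the shortest group to -0.07 in the longest (-0.14 and 0.07 after centring), and that in total mRNA went from -0.25 to 0.13. The WT RNC libraries also differed most between themselves in the shortest group, where the later minus the first listed had a median of -0.15, against -0.03 to 0.02 in the other 4 groups. Short genes were also the more abundant ones, with a median WT mRNA level of 48.3 RPKM in the shortest group and 10.4 RPKM in the longest. Dividing the genes by WT mRNA level into 5 equal groups in the same way, those in the highest group were split by span, and 58 of 344 (16.9%) in the shortest span group were lower and 7 of 185 (3.78%) in the next. By level alone, the share of genes called lower was 1.93% in the lowest of the 5 groups and 9.77% in the highest. Span and total mRNA moved with the ribosome-bound change, and their part in it was not tested.

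**Figure D5:**
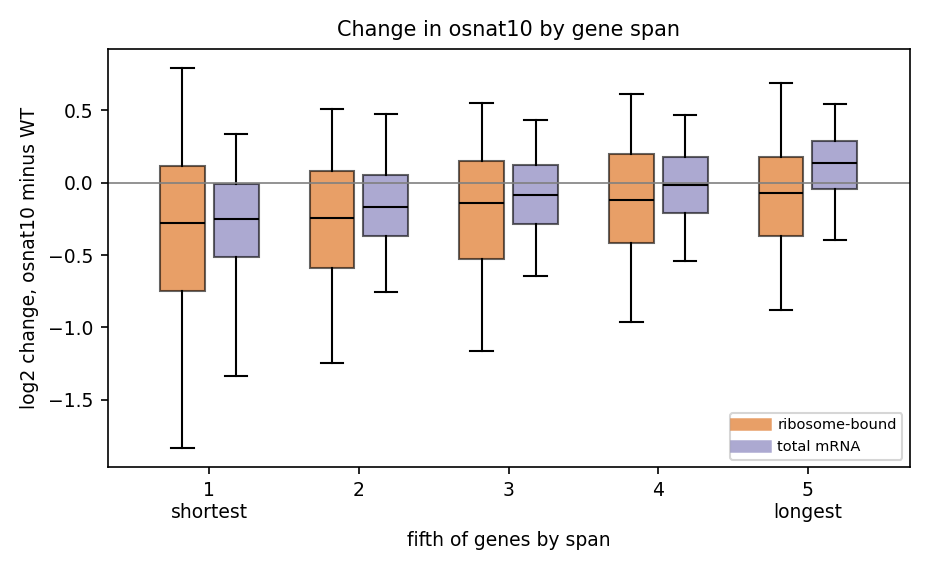
Log2 change, osnat10 minus WT (y axis), in ribosome-bound mRNA (orange) and total mRNA (purple) for 5 groups of 727 genes ordered by gene span (x axis); the line in each box is the median, the box spans the quartiles and the whiskers reach the 5th and 95th percentiles. Both medians are lowest in the shortest group, at -0.28 and -0.25, and highest in the longest, at -0.07 (0.07 after centring) and 0.13.

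Genes with a single listed transcript were called lower in 116 of 2274 cases (5.10%). With 2, 3 and at least 4 listed transcripts, 2.97%, 1.45% and 0.909% were lower. The median changes in these 4 classes were -0.20, -0.14, -0.07 and -0.05, or -0.05, 0.0050, 0.07 and 0.10 after centring. Their median spans rose with the number of transcripts, from 2874.5 to 5655.5 bases, and the part of span in these shares was not tested.

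The ac4C-seq libraries show where cytosines were converted in rice mRNA. Sodium cyanoborohydride reduces ac4C, after which reverse transcription reads it as T, and these libraries came from 15-day-old Nipponbare seedlings with 1 treated and 1 control library, so the classes below have no replicate. The site list spans chromosomes 1 to 8, and has sites on chromosome 9 only from 1019 to 30801 and on both organelle genomes. Plus-strand genes on chromosomes 1 to 8, which hold 1540 of the tested genes, were used. A strong site here had at least 10 reads in both libraries and a C-to-T rate at least 5 percentage points above the control. The 213 genes with a strong site had a median ribosome-bound log2 change of -0.12, with 7 lower (3.29%) and 0 higher. The 1316 genes with sites but no strong one had a median of -0.17, with 56 lower (4.26%) and 10 higher. In all 1540 genes the median was -0.16 and 64 (4.16%) were lower. The share in genes with a strong site was close to that background. All 1540 genes come from a table titled as genes carrying ac4C, so genes with ac4C were not set against genes without it. After centring, 7 of the 213 and 33 of the 1540 genes were lower, with medians of 0.03 and -0.02. Without the first and the later listed WT library, the median of the 213 genes was -0.08 and -0.16. Without the first and the second osnat10 library it was -0.02 and -0.18. Over all tested genes, the same fits gave -0.17, -0.19, -0.11 and -0.19. The median span of the 213 genes was 4827 bases, against 3168 bases in the genes with sites but no strong one. Their WT mRNA median was 12.1 RPKM against 20.3 RPKM. From the shortest to the longest span group, 2, 2, 2, 0 and 1 genes with a strong site were lower (10.5%, 7.14%, 6.45%, 0% and 1.11%). In the other covered genes the shares were 11.1%, 4.73%, 2.52%, 1.89% and 0.459%. The part of span was not tested.

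The most converted site in a gene that was lower on ribosomes lay at position 20724692 of chromosome 7, in the gene at 20724581 to 20726069. It read as T in 4908 of 5188 treated reads, 94.6% (exact 95% interval 94.0% to 95.2%), and in 0 of 3258 control reads. Taking 3 counts as an approximate limit for a count of 0, the control rate could be up to 0.0921%. Ribosome-bound mRNA of that gene was 35.9 and 26.5 RPKM in WT and 5.62 and 7.08 RPKM in osnat10, with no overlap. The log2 change was -2.12 (SE 0.29, limma adjusted p = 0.00572), beside -1.55 in total mRNA (limma adjusted p = 0.0356). A gene on chromosome 4 (20708033 to 20709830) had a site converted in 59.7% of treated and 0.0312% of control reads, and gave 216 and 195 RPKM on WT ribosomes and 154 and 185 RPKM on osnat10 ribosomes. Its log2 change was -0.28 (limma adjusted p = 0.489). Reads at a site are not independent molecules, so the interval covers counting error only.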

How the data were processed

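RPKM values were made by the authors and deposited per transcript, and all transcripts of a gene shared 1 value, so each gene entered once. Per the submitters' processing notes, STAR 2.5.3a, SAMtools and the builds TAIR10 and IRGSP-1.0 were used. The step that each served, the annotation and the RPKM denominator are not given in the sources used here. The deposited natural log of translation efficiency equalled the ln of mean RNC over mean mRNA RPKM in 100% of transcripts (tolerance 1e-06) and was used only for that check. The ac4C-seq table holds deposited counts of reads per site and library with a deposited p-value. The count headed C was read as all reads, because the p-value then fits at 100% of sites (relative tolerance 0.001).

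Values were tested as log2(RPKM + 1) with limma 3.58.1 in R 4.3.3 (eBayes with trend). The 8 rice RNC-seq libraries in 4 groups shared a fit, with no scaling and no block, and p-values were adjusted by Benjamini-Hochberg over 3635 genes, each averaging 1 RPKM or more. A pseudocount of 1 understates the change of low genes. Whole reads were recovered only for part of the genes, so no count test was run. The reads per library were estimated from the spacing of low values over gene span, and this search was added after the data were seen. Intervals are Clopper-Pearson (exact), and the limit for a count of 0 is approximate, at 3 counts over the reads. The fit was tested on simulated data.

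Genes were named by a rule: the 15 largest changes per direction among called genes whose groups do not overlap and whose mean is at least 5 RPKM, and the 5 highest genes. At most a pair of IDs per direction is printed. The chromosome 10 stretch, the organelle genes and the genes with ac4C-seq sites were named after their values were seen. Gene lists by description could not be applied, since 0 IDs matched. The members, groups and lists were chosen with earlier results of these data known. The acRIP and Arabidopsis samples were not used here.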

Additional observations from a re-analysis of the deposited data

Results flagged for a closer look

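A gene on chromosome 4 (33022835 to 33028358) moved in ribosome-bound mRNA and little in total mRNA. On ribosomes it gave 5.76 and 6.64 RPKM in WT and 15.7 and 16.2 RPKM in osnat10, a log2 change of 1.24 (limma adjusted p = 0.0440). That call was lost in 5 of 13 other fits: with a pseudocount of 0.1, with only the RNC libraries, and without the first WT, the later WT or the first osnat10 library (limma adjusted p = 0.0684, 0.152, 0.126, 0.121 and 0.0724). Its total mRNA gave 3.29 and 3.10 RPKM in WT and 2.86 and 3.09 RPKM in osnat10, a log2 change of -0.08 (limma adjusted p = 0.973). Both osnat10 libraries lay above WT on ribosomes. In total mRNA the second osnat10 library was nearly equal to the later listed WT library. The difference between both changes was 1.32 on the log2 scale and was not called (limma adjusted p = 0.714 for the interaction).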

How the results depend on the processing

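No paired analysis was possible because the WT columns carry no replicate numbers. The 150 lower genes became 77 with centring, 88 with quantile normalization, 98 with a pseudocount of 0.1, 58 with only the 4 RNC libraries and 84 without the trend. The 21 higher genes became 45 with quantile normalization, 10 with only the RNC libraries and 12 without the trend. Leaving out each RNC library in turn gave 40 to 541 lower and 4 to 69 higher genes. The 7 lower genes among the 213 with a strong site (3.29%) became 2 with only the RNC libraries. With a gap of 10 points the class held 47 genes, and 3 of them (6.38%) were lower, against 4.16% of the 1540 covered genes. The median over all genes became -0.026 with centring, 0.035 with quantile normalization and -0.19 to -0.11 without a library. Over genes with a strong site it became 0.025, 0.10 and -0.18 to -0.024. Across all genes, other fits also called genes outside the 150 and the 21. With a pseudocount of 5, for example, 190 genes were lower, and 147 of these were among the 150. Among the organelle genes and the most abundant genes named above, some that were not called changed sign. Of these named genes, atpH, atp1 and the genes at 26460057 on chromosome 3 and 27060232 on chromosome 12 were called in other fits. The plastid atpA went to 0.14 with centring, 0.17 with quantile normalization, 0.16 with a pseudocount of 0.1 and -0.88 to 0.87 without a library. The mitochondrial atp6 went to 0.069 with quantile normalization, and atp1 to between -2.13 and 0.46 without a library. Among the most abundant genes, that at 11262587 on chromosome 12 went to 0.12, 0.17 and -0.071 to 0.014, that at 24973448 on chromosome 2 went to 0.091 and 0.21 with the scalings, and that at 8546065 on chromosome 1 went to between -0.057 and 0.17 without a library. The cause of these shifts was not tested. Of the 30 genes named by the rule, calls were lost by 1 with centring, 9 with a pseudocount of 0.1, 11 with only the RNC libraries and 7 without the trend, and by 15, 20, 8 and 0 without each library in turn. None reversed. Leaving out genes listed at 0, an alternative chosen after seeing the data, lost no call among the 25 that it tested. A fit that leaves a genotype with 1 RNC library assumes that this library varies like the others.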

Other observations

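In 17 plus-strand genes an ac4C-seq site read as T in at least 20% of at least 50 treated reads and in under 5% of control reads. Their median ribosome-bound log2 change was -0.46, against -0.16 in the 1540 covered genes. Of the 17, 14 lay below 0, against 64.2% of all tested genes. After centring 12 of the 17 lay below 0, and the median of the 1540 genes was then -0.02. By limma 2 of the 17 were called lower and 0 higher, against 4.16% lower among the 1540 genes. Of those 2, the gene at 24505215 on chromosome 7 lost its call without the first and without the later listed WT library and with only the RNC libraries (limma adjusted p = 0.1001, 0.123 and 0.0654). This cut-off was chosen after the site values were seen. A mitochondrial gene with an Ensembl Plants identifier gave 5.46 and 305 RPKM on WT ribosomes and 476 and 242 RPKM on osnat10 ribosomes, so the first WT library stood far below the other RNC libraries. A non-coding RNA entry on chromosome 1 (33506260 to 33506791) gave 7.72 and 254 RPKM in WT and 384 and 277 RPKM in osnat10, with the same library low.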
